A study of Mus musculus with 4 samples.

Results

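Stretches of open chromatin that ranked higher in wild-type (WT) than in Sphk2 KO tumour myeloid cells are described here, 574 regions of 16657 that were called in all 4 ATAC-seq libraries. ATAC-seq uses the Tn5 transposase to insert adapters into accessible DNA, so that a pile of fragments marks an open promoter or enhancer. The cells were Gr1+CD11b+ myeloid-derived suppressor cells (MDSCs), sorted from ascites fluid 14 days after EL4 injection. The Sphk2 KO group (n = 2 libraries) came from mice without a working Sphk2 gene, and the WT group (n = 2 libraries) from mice with it. Hosts of both genotypes carried EL4 tumour, a mouse T cell lymphoma line, so neither group is free of tumour. Each library was made from 20000 cells with 40% of the usual Tn5. Both are labelled as biological replicates with no animal named, so the spread between 2 libraries may be partly technical. The sources used here do not give the allele, strain, age or sex.

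The regions were chosen by their own values. Autosomal peaks of the 4 lists were merged wherever they overlapped by 1 bp, which gave 44742 regions, of which 16657 held a peak from every library. In each library the highest fold enrichment in a region (the caller's ratio of fragment pileup to local background) was turned into a percentile rank among the 16657, with 100 for the highest. A region was taken when the lower of its WT ranks exceeded the higher of its Sphk2 KO ranks by 10 points or more. This difference, WT minus Sphk2 KO, is called the rank gap, and the 574 regions are called members. Since the fold enrichments selected the regions, their differences between genotypes are given as a description, with no test.

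Sphk2 encodes sphingosine kinase 2, an enzyme found in the nucleus, mitochondria and cytoplasm that phosphorylates sphingosine to sphingosine 1-phosphate. MDSCs are immature myeloid cells of a granulocytic and a monocytic kind that restrain T cells in tumour-bearing hosts. Type I and type II interferons act on such cells through STAT and IRF factors, which bind gene promoters at sequences such as the interferon-stimulated response element (ISRE).

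Promoter stretches of interferon-induced genes are shown first. The 2 interferon gene lists held 14 of the 574 regions, so these stretches stand for a small part of the set. A reference table of RefSeq promoter windows (GRCm38.p6, the assembly that mm10 names) gives 250 bases before and 50 after each gene's start. The mean summit of 166 of the 574 regions (28.9%) fell in such a window, as did that of 5246 of all 16657 shared regions (31.5%). The 7 stretches below are 120 bases each from windows of interferon-induced genes and are the windows of the 2 interferon gene lists whose region ranked higher in WT. A region counts here by any gene whose window holds its summit, so Ifit1bl2 counts through Ifit1. The counts of list regions below go by the nearest gene and leave that region out. Each is written 5′ to 3′ on the gene's own strand, and capitals mark the ISRE letters GAAANNGAA, read on both strands, with overlapping matches run together.

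Ifit1bl2 (chr19:34640750-34640869, minus strand): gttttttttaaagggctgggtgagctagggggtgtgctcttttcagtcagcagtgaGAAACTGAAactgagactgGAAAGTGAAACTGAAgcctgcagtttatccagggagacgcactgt
Trim30a (chr7:104446076-104446195, minus strand): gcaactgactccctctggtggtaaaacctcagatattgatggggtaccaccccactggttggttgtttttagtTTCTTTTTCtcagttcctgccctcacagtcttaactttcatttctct
Trim21 (chr7:102565433-102565552, minus strand): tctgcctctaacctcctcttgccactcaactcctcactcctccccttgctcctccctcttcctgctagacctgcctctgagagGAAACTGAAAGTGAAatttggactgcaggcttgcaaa
Gbp2 (chr3:142620549-142620668, plus strand): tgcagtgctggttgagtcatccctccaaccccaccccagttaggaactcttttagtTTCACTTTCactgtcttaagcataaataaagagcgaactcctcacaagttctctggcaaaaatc
Igtp (chr11:58199466-58199585, plus strand): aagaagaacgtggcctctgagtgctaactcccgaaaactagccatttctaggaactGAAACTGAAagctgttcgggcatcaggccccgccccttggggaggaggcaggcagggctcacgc
Gbp7 (chr3:142530228-142530347, plus strand): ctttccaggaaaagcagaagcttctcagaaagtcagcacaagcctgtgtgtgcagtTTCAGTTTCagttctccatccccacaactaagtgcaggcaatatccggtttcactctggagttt
Irgm2 (chr11:58214857-58214976, plus strand): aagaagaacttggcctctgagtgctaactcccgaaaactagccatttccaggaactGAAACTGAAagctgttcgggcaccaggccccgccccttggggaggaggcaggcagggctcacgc

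All 7 windows hold the ISRE letters. Ifit1bl2 has 3 matches in its stretch and Trim21 has 2, and in both some of the matches overlap. The summit of the Ifit1bl2 region also fell in the promoter window of Ifit1. The Igtp and Irgm2 stretches are near copies, with 117 of 120 bases identical and 3 different. The sources used here do not say how fragments that could map to both were treated, so the values of these neighbours are uncertain.

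The second set shows the windows with the largest rank gaps outside those lists, of which Sphk2 itself has the largest. In these, capitals mark the ETS core letters CCGGAA, on either strand. Of the 9 stretches, 3 hold those letters, with 2 separate matches at Ap3s2, and none holds the ISRE letters.

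Sphk2 (chr7:45717970-45718089, minus strand): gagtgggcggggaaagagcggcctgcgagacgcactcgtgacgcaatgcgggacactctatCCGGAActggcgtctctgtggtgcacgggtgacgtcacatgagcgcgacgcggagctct
Selenow (chr7:15922357-15922476, minus strand): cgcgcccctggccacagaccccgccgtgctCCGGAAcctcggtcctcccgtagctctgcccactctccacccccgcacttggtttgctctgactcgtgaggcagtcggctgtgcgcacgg
Ap3s2 (chr7:79920615-79920734, minus strand): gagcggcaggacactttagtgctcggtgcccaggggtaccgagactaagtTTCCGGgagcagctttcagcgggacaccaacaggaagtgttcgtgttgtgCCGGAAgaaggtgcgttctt
Kyat3 (chr3:142700935-142701054, plus strand): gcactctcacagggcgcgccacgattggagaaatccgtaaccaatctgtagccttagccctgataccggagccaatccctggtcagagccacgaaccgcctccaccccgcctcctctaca
E2f7 (chr10:110745319-110745438, plus strand): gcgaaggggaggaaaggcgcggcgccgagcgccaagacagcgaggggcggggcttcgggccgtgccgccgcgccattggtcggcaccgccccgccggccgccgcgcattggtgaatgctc
Tbcd (chr11:121451837-121451956, plus strand): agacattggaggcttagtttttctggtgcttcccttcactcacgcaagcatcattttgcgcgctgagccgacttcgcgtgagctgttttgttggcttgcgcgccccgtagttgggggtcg
Fam214a (chr9:74952975-74953094, plus strand): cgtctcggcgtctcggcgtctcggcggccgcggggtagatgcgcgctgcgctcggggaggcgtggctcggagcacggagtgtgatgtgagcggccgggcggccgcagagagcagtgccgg
Rcbtb1 (chr14:59201116-59201235, plus strand): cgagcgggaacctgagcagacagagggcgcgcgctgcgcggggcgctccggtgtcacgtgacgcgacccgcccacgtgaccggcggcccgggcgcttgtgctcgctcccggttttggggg
Pdp2 (chr8:104591313-104591432, plus strand): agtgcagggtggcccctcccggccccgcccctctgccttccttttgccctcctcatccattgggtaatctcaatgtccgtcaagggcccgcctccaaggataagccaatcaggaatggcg

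The summit of the Sphk2 region also fell in the promoter window of Rpl18, a ribosomal protein gene. Both Selenow and Ap3s2 lie on chromosome 7 as well. The other windows are those of Kyat3 (a kynurenine aminotransferase), E2f7 (a repressor of the E2F family), Tbcd (a tubulin-folding cofactor), Rcbtb1 and Fam214a, and Pdp2 (a phosphatase that activates pyruvate dehydrogenase).

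Depth and peak numbers differed between the genotypes. Sphk2 KO replicates 1 and 2 rested on 25877428 and 27686223 retained fragments and held 20759 and 27446 peaks, and WT replicates 1 and 2 rested on 33859480 and 34443062 fragments and held 31507 and 31843 peaks. Sphk2 KO replicate 1 stood apart with the fewest of both. Over all shared regions the median fold enrichment was 6.87 and 8.31 in Sphk2 KO libraries and 7.98 and 7.77 in WT libraries, and ranks within a library remove such an offset. Each library had a gene-end peak at 8 of 12 defining neutrophil markers, with Ly6g, Csf3r and Ngp at 0 in all. Camp had one in both WT libraries alone and Ltf in both Sphk2 KO libraries alone. Markers of B cells, NK cells and erythroid cells were at 0 in all 4 libraries. Of 5 dendritic cell markers, 2 and 3 had a gene-end peak in Sphk2 KO libraries, against 3 and 3 in WT libraries. Of 4 eosinophil, mast cell and basophil markers, 1 and 1 had a gene-end peak in Sphk2 KO libraries, against 1 and 0 in WT libraries. Monocyte markers were not even: 3 and 4 of 10 had a gene-end peak in Sphk2 KO libraries, against 6 and 7 in WT libraries. In a sorted population, fewer cells of a type and less open chromatin per cell cannot be told apart.

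The 574 regions were 3.45% of those shared. In the opposite direction 482 regions (2.89%) ranked at least 10 points higher in Sphk2 KO libraries. The rule was also applied to the groupings that put 1 library of each genotype on each side, so that genotype is balanced. The pair of Sphk2 KO 1 and WT 1 ranked higher in 297 regions (1.78%), and the pair of Sphk2 KO 2 and WT 2 in 387 (2.32%). The pair of Sphk2 KO 2 and WT 1 ranked higher in 281 regions (1.69%), and the pair of Sphk2 KO 1 and WT 2 in 193 (1.16%). The count for WT above Sphk2 KO was thus the highest of the 6, and the mixed pairs reached between 193 and 387 at the same threshold. Gaps of this size thus also arose where genotype was balanced.

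Larger gaps were rarer in the mixed pairs. At 20 points or more 119 regions (0.714%) ranked higher in WT and 75 in Sphk2 KO, and the mixed pairs had 7, 56, 33 and 7. At 30 points or more 27 regions (0.162%) ranked higher in WT and 12 in Sphk2 KO, and the mixed pairs had 1, 3, 2 and 1. When regions were ranked by pileup height, 518 (3.11%) ranked at least 10 points higher in WT and 490 in Sphk2 KO, with 66, 48, 54 and 33 in the mixed pairs. Ranked by −log10 q, 552 (3.31%) ranked higher in WT and 506 in Sphk2 KO, with 102 to 128 in the mixed pairs. With 2 libraries against 2, no exact permutation test can give a two-sided p under 0.333, and none was run on the counts.

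**Figure D1:**
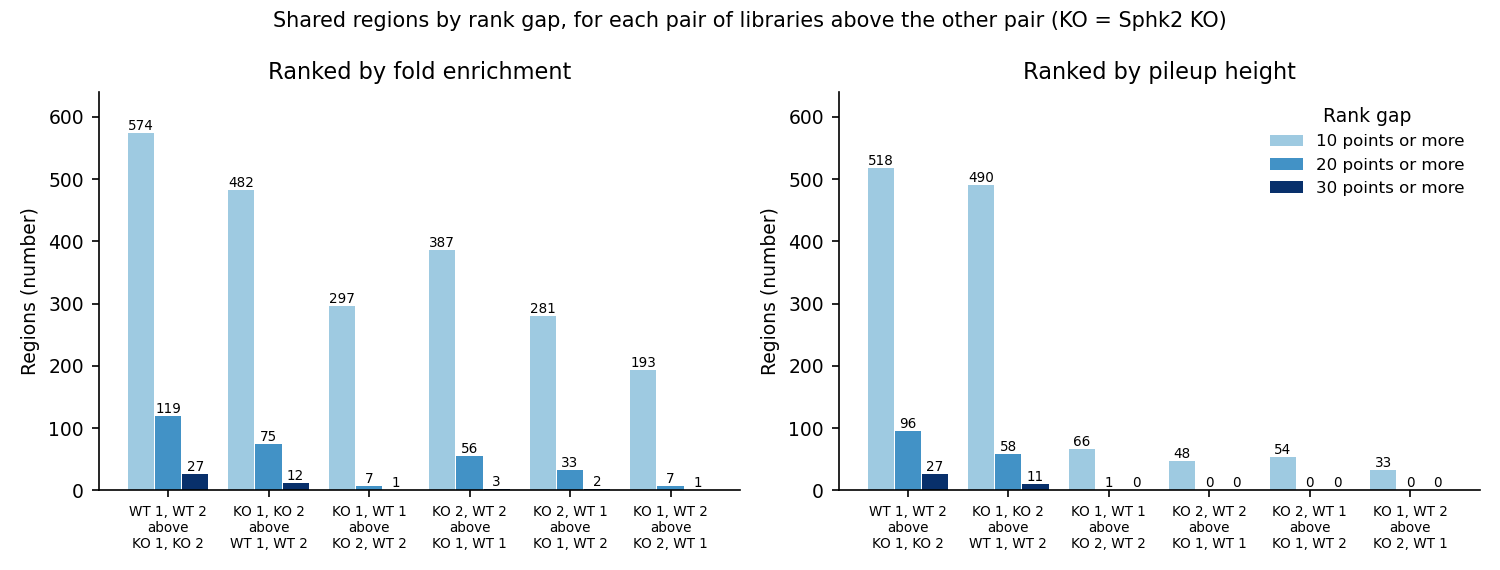
Number of shared regions whose rank gap reached 10, 20 or 30 points, for each of the 6 ways to set 2 libraries above the other 2, ranked by fold enrichment (left) or by pileup height (right). The bars for WT above Sphk2 KO stand at 574, 119 and 27 by fold enrichment, and the mixed pairs fall to 1 to 3 regions at 30 points.

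The regions were weak peaks in Sphk2 KO libraries and middling ones in WT libraries. Their median rank was 26.7 and 31.8 in Sphk2 KO replicates 1 and 2, and 54.1 and 54.7 in WT replicates 1 and 2. Median fold enrichment was 5.12 and 6.66 in Sphk2 KO libraries and 8.39 and 8.16 in WT libraries. Median pileup height was 22 and 39 fragments in Sphk2 KO libraries, against 48 and 56 in WT libraries. Over all shared regions it was 43 and 79 fragments in Sphk2 KO libraries, against 62 and 74 in WT libraries, so Sphk2 KO replicate 2 was not low there. At 22 fragments a rank is coarse: in Sphk2 KO replicate 1 as many as 169 shared regions had the same fold enrichment, against at most 55 to 87 in the other libraries. Both Sphk2 KO libraries had fewer retained fragments in total than the WT libraries, and the part of depth in the gaps was not tested.

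The rank gap of the 574 regions had a median of 14.6 points and reached 51.2 points. In 160 regions both Sphk2 KO ranks lay under 50 and both WT ranks over 50. In 45 both Sphk2 KO ranks lay under 10, and in 9 both WT ranks lay over 90. Those 9 included regions at Prc1 and Nuf2, which encode parts of the mitotic spindle apparatus, and one near Nampt, the enzyme that makes the NAD precursor NMN. At Prc1 the ranks were 80.5 and 77.0 in Sphk2 KO libraries and 99.3 and 99.1 in WT libraries. A region in the upper part of the ranks in every library can thus be included as well. The 3 were chosen after their values were seen.

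All 574 regions had both WT fold enrichments above both Sphk2 KO ones, which the rule nearly fixes. The same order of fold enrichments held in 2989 of all shared regions (17.94%). By rank, both WT libraries lay above both Sphk2 KO libraries in 3015 of all shared regions (18.1%). Pileup height and −log10 q are computed from the same fragments and so are no independent check. By pileup height 548 of the 574 kept both WT ranks above both Sphk2 KO ranks and 269 kept a gap of 10 points. By −log10 q 570 kept the order and 374 the gap, and 269 kept the gap by all 3 measures. Regions at the edge of the rule were alike on both sides: Pecr and St3gal5 lay just inside with gaps of 10.01 points each, and Slc8b1 and E330021D16Rik just outside with 9.99 points each.

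**Figure D2:**
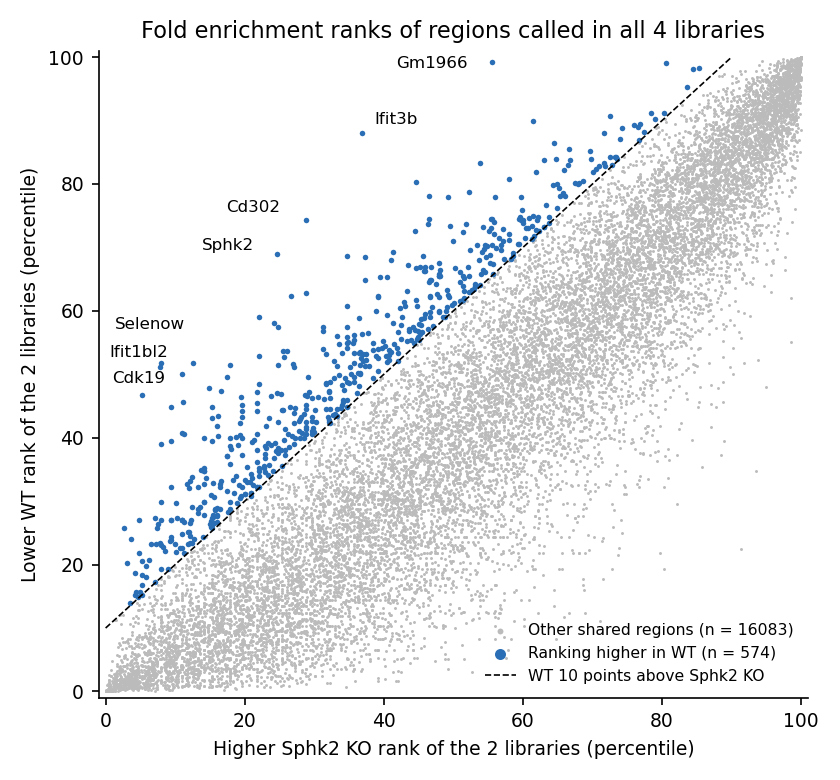
Each point is a region called in all 4 libraries, placed by the higher of its 2 Sphk2 KO fold enrichment ranks (x axis, percentile) and the lower of its 2 WT ranks (y axis, percentile). The 574 regions on or above the dashed line (blue) start at ranks near 0 and thin out towards 100, and the 7 with a gap of 40 points or more carry the name of the nearest gene.

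Gene ends held 254 of the 574 regions (44.3%, 95% exact binomial interval 40.1 to 48.4% for counting error alone), counted within 1 kb of either end of a protein-coding gene. Among the regions that ranked higher in Sphk2 KO the share was 25.1% (121 of 482), and among all shared regions it was 45.1%. Regions inside a gene made up 27.9% of the 574, 44.0% of those higher in Sphk2 KO and 30.5% of all shared regions. The gene-end share was 42.0% for gaps of 10 to 20 points (191 of 455), 47.8% for 20 to 30 points (44 of 92) and 70.4% above that (19 of 27). Median width was 890 bp, against 962 bp for all shared regions. In place the 574 were therefore near the background, except at the largest gaps, and their median width was slightly smaller. Sets taken by pileup height or −log10 q had gene-end shares of 37.45% and 38.41%, further below the background.

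A protein-coding gene had an end within 100 kb of 547 of the regions, 537 genes in all. No gene had 3 or more of the regions and 10 genes had 2, among them Usp18, Gm1966, Treml4, Pde4d and Itpr2. In 15 cases neighbouring regions lay within 50 kb of each other. Several of these pairs joined genes of 1 family: Ifit3b with Ifit1bl2, Gbp7 with Gbp3, Igtp with Irgm2, Trim30c with Trim30a and H2-Q4 with H2-Q7. Across the 19 autosomes the share of shared regions in the set ran between 2.39% on chromosome 16 and 5.86% on chromosome 6.

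Chromosome 7, which carries Sphk2, held 43 of its 1145 shared regions in the set (3.76%), close to the 3.45% over all autosomes. It held 7 of the 27 regions with gaps of 30 points or more (25.9%), against 6.87% of all shared regions. Among the 12 regions with such gaps in the opposite direction, 3 were on chromosome 7. Sequence around a targeted gene often comes from the strain in which the allele was made, and the strains are not given in the sources used here, so a genotype effect and a strain difference on this chromosome cannot be told apart.

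The region with the largest gap lay at Ifit3b, one of the IFIT genes that interferon induces and whose proteins bind viral RNA. It spans chr19:34606895-34608522 and its summit lies 21 bp from the gene end. Its fold enrichment was 5.85 and 6.89 in Sphk2 KO replicates 1 and 2, against 12.5 and 13.2 in WT replicates 1 and 2. Its ranks were 36.9 and 34.4 in Sphk2 KO libraries, against 88.1 and 96.0 in WT libraries. The gap was 51.2 points. Pileup height was 23 and 37 fragments in Sphk2 KO libraries, against 131 and 169 in WT libraries.

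The region at Ifit1bl2, whose summit also fell in the promoter window of Ifit1, lay 33235 bp further along the same cluster. Its fold enrichment was 3.73 and 4.23 in Sphk2 KO libraries, against 8.11 and 8.67 in WT libraries. Ranks of 7.14 and 7.80 in Sphk2 KO libraries stood against 51.1 and 60.4 in WT libraries, a gap of 43.3 points. In Sphk2 KO cells it was thus among the weakest of the shared regions, with 16 and 18 fragments at its summit. Its promoter stretch is the one with 3 ISRE matches.

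At Cd302, a C-type lectin receptor of myeloid cells, fold enrichment was 5.13 and 6.38 in Sphk2 KO libraries, against 11.3 and 10.0 in WT libraries. Its ranks were 26.9 and 28.8 in Sphk2 KO libraries, against 80.2 and 74.3 in WT libraries, a gap of 45.6 points. By pileup height the gap was 32.9 points, so all 3 measures placed this region higher in WT.

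The region at the start of Sphk2 and Rpl18, chr7:45717303-45718352, lies 27 bp from the gene end. Its fold enrichment was 5.002 and 5.91 in Sphk2 KO libraries, against 9.97 and 9.80 in WT libraries, and its rank gap was 44.3 points. Its pileup height overlapped between the genotypes, with 79 and 170 fragments in Sphk2 KO libraries, against 97 and 118 in WT libraries. By pileup height the gap was -10.76 points, where a value below 0 means that the ranks of the genotypes were not fully apart in the WT direction, and by −log10 q it was 4.92 points. The local background that pileup and fold enrichment imply (with 1 added to each count) was 15.0 and 27.9 fragments in Sphk2 KO libraries, against 8.83 and 11.1 in WT libraries. In Sphk2 KO libraries 93.8% and 94.0% of shared regions had a lower implied background, against 66.2% and 65.2% in WT libraries. At the targeted gene the low fold enrichment in Sphk2 KO thus came with a high implied local background in both Sphk2 KO libraries, while the height at the summit did not separate the genotypes.

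On the lower-coordinate side, the member nearest to Sphk2 was at Bcat2, the mitochondrial branched-chain aminotransferase, 120114 bp away. Its ranks were 19.5 and 23.1 in Sphk2 KO libraries, against 38.4 and 41.1 in WT libraries. This gap of 15.3 points was -0.27 points by pileup height. Both of these chromosome 7 regions thus depended on which measure was ranked.

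Selenow, which encodes a small selenoprotein of the thioredoxin-like family, had fold enrichments of 3.77 and 4.01 in Sphk2 KO libraries, against 8.17 and 8.10 in WT libraries. The rank gap was 43.9 points. The summit held 14 and 17 fragments in Sphk2 KO libraries, against 36 and 43 in WT libraries. The promoter of Cat, the gene of the hydrogen peroxide-degrading enzyme catalase, had 3.77 and 5.79 in Sphk2 KO libraries, against 8.88 and 8.68 in WT libraries, a gap of 37.0 points. Sphk2 KO replicate 2 lay between the other Sphk2 KO library and the WT libraries there.

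A region between genes on chromosome 7, 66311 bp from the nearest end of Gm1966, was among the very strongest regions in WT. Its ranks were 44.5 and 55.6 in Sphk2 KO libraries, against 99.3 and 99.9 in WT libraries. Fold enrichment was 6.44 and 8.86 in Sphk2 KO libraries, against 16.1 and 16.5 in WT libraries. The other Gm1966 region lay 21836 bp from it. Distance to a gene end does not show which gene such a region serves.

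Among members with a gene end within 100 kb, the others of the 16 largest gaps were at Cdk19 (a kinase of the Mediator complex, 41.5 points), Phldb1 (39.3 points), Trim30c (38.9 points), Cyp20a1 (an orphan cytochrome P450, 35.6 points), Cs (citrate synthase, 35.4 points), Sh2d6 (34.5 points), Zfp846 (a zinc finger gene, 34.1 points), Mtmr10 (33.9 points) and Kyat3 (33.8 points). Cdk19 and Cs regions lay inside the gene and that of Mtmr10 between genes. Within Cs, which opens the citric acid cycle, fold enrichment was 3.26 and 4.45 in Sphk2 KO libraries, against 7.51 and 8.64 in WT libraries. Ranks of Cyp20a1 were uneven within Sphk2 KO, at 5.19 and 44.7, against 80.3 and 84.1 in WT libraries. The replicates thus agreed less for some of the 16 than for Ifit3b or Selenow. A region inside Nav2 on chromosome 7, 155282 bp from the nearest gene end and so outside the naming rule and named after its values were seen, had a gap of 35.7 points. Its ranks were 26.2 and 26.7 in Sphk2 KO libraries, against 62.4 and 74.8 in WT libraries.

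**Figure D3:**
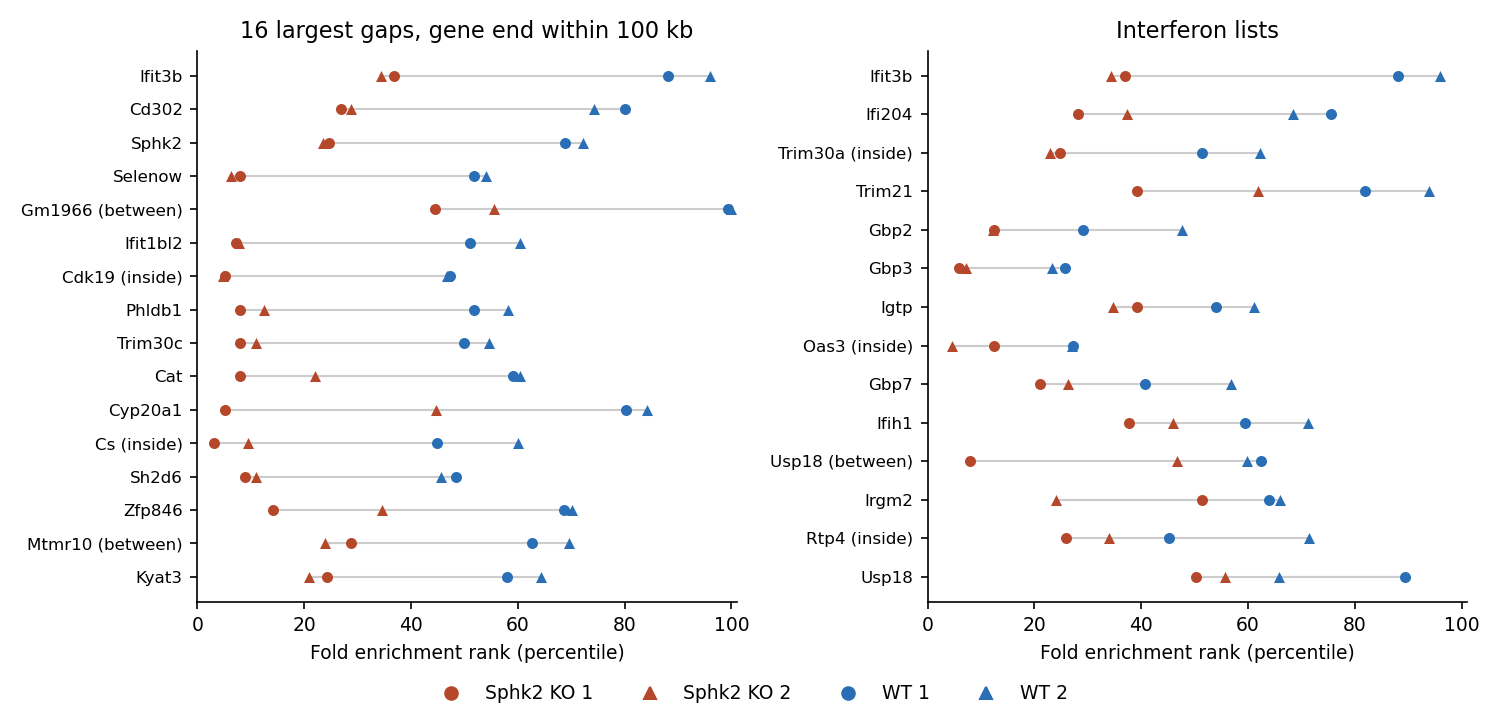
Fold enrichment ranks (percentile) of the 16 members with the largest gaps among those with a gene end within 100 kb (left) and of the 14 members in the interferon lists (right), with Sphk2 KO libraries in orange and WT libraries in blue. Circles mark replicate 1 and triangles replicate 2. The points of both genotypes are apart in every line, as the rule requires of a member. The distance is wide for Ifit3b, and Cyp20a1 and 1 of the Usp18 regions show the spread between Sphk2 KO replicates.

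Among the gene lists with 10 or more shared regions, the 2 on interferon-induced genes had the highest shares of members. These lists, a type I response list and a list of interferon-inducible GTPases and TRIM proteins, held 42 genes, of which 30 had a shared region. Of their 42 shared regions 14 were members (33.3%) and 1 ranked higher in Sphk2 KO. Among the other 15923 regions with a gene, 533 were members (3.35%). Both WT ranks lay above both Sphk2 KO ranks in 54.8% of the interferon regions and in 17.9% of the others. The median difference of mean ranks, WT minus Sphk2 KO, was 8.56 points in the interferon lists and -0.195 points in the others. Since the members and lists were chosen with results of these data known, these shares are given with no test.

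The pattern was stronger at gene ends. There 10 of 23 interferon regions were members (43.5%), against 244 of 7489 for other genes (3.26%). Away from gene ends 4 of 19 interferon regions were members. Among these was the region inside Trim30a, although its summit fell in a promoter window of that gene. Without chromosome 7, 12 of 31 interferon regions were members (38.7%). By pileup height 22 of the 42 regions passed the rule and by −log10 q 19 did.

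Sensors of nucleic acid come first by role. At Ifi204, an intracellular DNA sensor, fold enrichment was 5.25 and 7.15 in Sphk2 KO libraries, against 10.7 and 9.44 in WT libraries. Its rank gap was 31.2 points. At Ifih1, which encodes the RNA sensor MDA5, values were 5.92 and 7.94 in Sphk2 KO libraries, against 8.92 and 9.70 in WT libraries, with a gap of 13.5 points. Both sensor genes were open in all 4 libraries and ranked lower in Sphk2 KO, which the rule fixes for every member.

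Antiviral effectors included Oas3, an oligoadenylate synthetase that activates RNase L. Its region inside the gene had 4.13 and 3.74 in Sphk2 KO libraries, against 5.97 and 5.88 in WT libraries, a rank gap of 14.7 points. At Rtp4, an interferon-induced chaperone of receptors, fold enrichment was 5.04 and 6.84 in Sphk2 KO libraries, against 7.54 and 9.72 in WT libraries, with a gap of 11.3 points. By pileup height these gaps were 35.9 and 43.2 points, larger than by fold enrichment.

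Usp18, the protease that removes ISG15 and dampens the type I interferon receptor, had 2 member regions. The region at the gene end had fold enrichments of 6.90 and 8.87 in Sphk2 KO libraries, against 12.8 and 9.19 in WT libraries, and a gap of 10.2 points. The other, 1561 bp beyond a gene end, had 3.77 and 8.01 in Sphk2 KO libraries, against 9.25 and 8.62 in WT libraries. In both, 1 library stood far from its partner.

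Interferon-inducible GTPases, which act on the membranes around intracellular microbes, gave 5 members. At Gbp2 the ranks were 12.5 and 12.2 in Sphk2 KO libraries, against 29.1 and 47.7 in WT libraries, a gap of 16.6 points. At Gbp3 they were 5.82 and 7.22 in Sphk2 KO libraries, against 25.6 and 23.3 in WT libraries. At Gbp7 they were 20.95 and 26.3 in Sphk2 KO libraries, against 40.6 and 56.8 in WT libraries. These 3 guanylate-binding protein genes lie on chromosome 3 within the same cluster.

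The immunity-related GTPases Igtp and Irgm2, neighbours on chromosome 11, had gaps of 14.9 and 12.5 points. At Igtp the ranks were 39.2 and 34.6 in Sphk2 KO libraries, against 54.1 and 61.2 in WT libraries. At Irgm2 they were 51.4 and 24.1 in Sphk2 KO libraries, against 64.0 and 66.0 in WT libraries. Their near-identical promoter stretches are printed above.

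Of the TRIM genes, the ubiquitin ligase gene Trim21, whose protein is a cytosolic Fc receptor, had ranks of 39.2 and 61.9 in Sphk2 KO libraries, against 81.9 and 93.8 in WT libraries. Its gap was 19.95 points. A region inside Trim30a had ranks of 24.8 and 23.0 in Sphk2 KO libraries, against 51.5 and 62.3 in WT libraries, with a gap of 26.7 points. Another Trim30a region, at the gene end, was no member: its ranks overlapped, at 52.6 and 69.8 in Sphk2 KO libraries and 56.2 and 69.0 in WT libraries.

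The list did not move as a block. Cmpk2, a mitochondrial nucleotide kinase, missed the threshold with a gap of 9.98 points, and its gap was 34.3 points by pileup height and 27.7 points by −log10 q. Irf7, the master regulator of type I interferon genes, had 3.68 points by fold enrichment, 25.9 points by pileup height and 22.1 points by −log10 q. Stat2 had 0.94 points by fold enrichment, 6.14 points by pileup height and 4.62 points by −log10 q. A region near Rsad2 was the 1 that ranked at least 10 points higher in Sphk2 KO. Its ranks were 83.5 and 63.8 in Sphk2 KO libraries, against 47.0 and 52.2 in WT libraries. By pileup height its rank gap, WT minus Sphk2 KO, was 8.63 points, so its direction depended on the measure. Cmpk2 and Irf7 were thus no members by fold enrichment and passed 10 points by both other measures.

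Further interferon-induced genes outside the lists had member regions and are named after their values were seen. The gene end of Zbp1, a sensor of left-handed nucleic acid, had ranks of 10.3 and 26.1 in Sphk2 KO libraries, against 53.7 and 66.2 in WT libraries. That of Eif2ak2, the RNA-activated kinase PKR, had 10.996 and 25.2 in Sphk2 KO libraries, against 64.3 and 46.9 in WT libraries. The end of Ifi27 had a gap of 28.1 points, Herc6 27.6 points, Slfn8 25.5 points, Sp100 19.2 points, Parp12 16.6 points and Ifi47 15.7 points. Ifnar2, a subunit of the type I interferon receptor, had 52.1 and 44.4 in Sphk2 KO libraries, against 67.0 and 79.0 in WT libraries. These genes were picked because they were members, so they add no support to the lists.

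Monocyte markers had fewer gene-end peaks in Sphk2 KO libraries, which also held fewer peaks in total. The summed fold enrichment at the ends of the 10 markers was 13.9 and 20.6 in Sphk2 KO libraries, against 31.5 and 31.5 in WT libraries. A marker without a peak adds 0 to its sum, so the sums largely follow the peak counts and do not measure openness per marker. Csf1r, Cx3cr1 and Klf4 had a peak in all 4 libraries. Irf8 and Fn1 lacked one in both Sphk2 KO libraries and had one in each WT library, and Ccr2, Vcan and Ms4a6c were at 0 in all. For the 12 neutrophil markers the sums were 37.6 and 39.5 in Sphk2 KO libraries, against 42.4 and 38.3 in WT libraries. Peaks at T cell and EL4 markers numbered 3 and 2 of 12 in Sphk2 KO libraries, against 3 and 6 in WT libraries, with Cd3e, Cd3g, Cd2, Lck, Tcf7 and Gata3 at 0 in all. Cd3d and Cd5 had one in all 4 libraries, and Lat lacked one in Sphk2 KO replicate 2 alone. Bcl11b, Thy1 and Zap70 had one in WT replicate 2 alone. The summed T cell values were 23.1 and 20 in Sphk2 KO libraries, against 22.2 and 32.9 in WT libraries. The part of the cell mixture in the interferon regions was not tested.

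**Figure D4:**
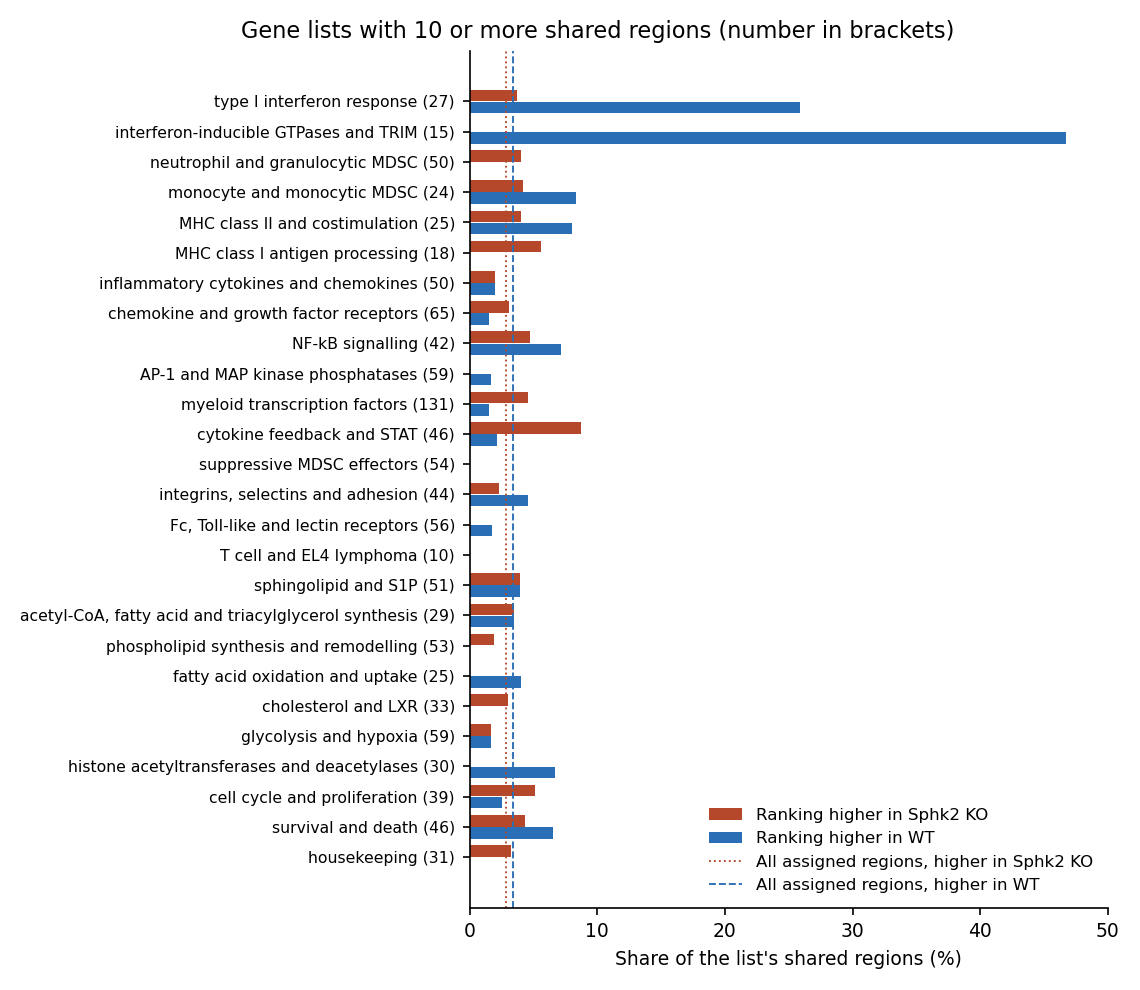
Share of each gene list's shared regions (%) that ranked at least 10 points higher in Sphk2 KO (orange) or in WT (blue), for lists with 10 or more shared regions, with the number of regions in brackets and dashed or dotted lines for all regions with a gene. The 2 interferon lists reach 25.9% and 46.7% in WT, and the other lists stay under 10% in either direction.

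The remaining lists had between 0 and 3 members each. None of 50 regions of neutrophil and granulocytic MDSC genes and none of 54 regions of suppressive effector genes was a member, and neither was any of 18 regions of MHC class I genes. Monocyte genes gave 2 of 24 regions (8.33%): Adgre1, which encodes the macrophage marker F4/80, and Cd14, the lipopolysaccharide co-receptor. At Adgre1 the ranks were 32.3 and 33.9 in Sphk2 KO libraries, against 45.8 and 44.7 in WT libraries. The MHC class II list gave 2 of 25 regions (8%), at Ctss, a protease that trims the invariant chain, and at Cd86, a T cell costimulator. At Ctss the ranks were 3.02 and 3.65 in Sphk2 KO libraries, against 24.1 and 29.0 in WT libraries. Its peaks held only 12 and 15 fragments in Sphk2 KO libraries, against 28 and 32 in WT libraries. With so few members, these shares lie within a region or 2 of the background.

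The sphingolipid list, which holds the pathway of the deleted enzyme, gave 2 of 51 regions (3.92%), as many as ranked higher in Sphk2 KO. They were Sphk2 itself and Acer2, an alkaline ceramidase of the Golgi that supplies sphingosine. Acer2 had fold enrichments of 5.02 and 7.99 in Sphk2 KO libraries, against 10.6 and 10.1 in WT libraries, and a gap of 28.1 points. Outside the targeted gene, Acer2 was the only member of this list.

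Lipid and energy metabolism gave single members. Dgat2, which makes triacylglycerol, had ranks of 11.9 and 9.94 in Sphk2 KO libraries, against 38.1 and 32.0 in WT libraries, with a gap of 20.1 points. Cd36, a fatty acid transporter, had ranks of 3.02 and 1.76 in Sphk2 KO libraries, against 29.5 and 20.3 in WT libraries. Its peaks held only 12 and 13 fragments in Sphk2 KO libraries, against 27 and 26 in WT libraries. The gap of 17.3 points was 4.94 points by pileup height. At Slc2a3, a glucose transporter gene, the gap was 17.0 points by fold enrichment and 4.75 points by pileup height. Neither the 53 phospholipid regions nor the 33 cholesterol regions included a member. The share of members was 3.45% in the fatty acid synthesis list, 4.00% in the fatty acid oxidation list and 1.69% in the glycolysis list, all near the background.

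Signalling and transcription lists were near the background too. NF-kB genes gave 3 of 42 regions (7.14%), namely Tnfaip3, an inhibitor of the pathway, Nfkbiz and Rel. Their gaps were 15.7, 15.1 and 10.9 points by fold enrichment and 2.82, 3.35 and 0.15 points by pileup height, so none kept 10 points by that measure. The AP-1 list gave Batf alone among 59 regions, with a gap of 21.4 points. Myeloid transcription factors gave 2 of 131 regions (1.53%), inside Etv6 and Zeb2. The list of cytokine feedback genes gave 1 of 46, near Ptpn1, a phosphatase of JAK kinases.

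Cell-surface receptors gave few members. Near Fcgr1, the high-affinity IgG receptor, fold enrichment was 4.27 and 5.56 in Sphk2 KO libraries, against 7.85 and 7.34 in WT libraries, with a gap of 25.4 points. This was the only member among 56 regions of Fc, Toll-like and lectin receptors. Near Cd9, a tetraspanin, the gap was 22.9 points, and inside Cd44, the hyaluronan receptor, it was 18.3 points. They were the 2 members among 44 regions of the adhesion list (4.55%). A region near Csf2rb (12.8 points), the shared receptor chain for GM-CSF and related cytokines, was the only member among 65 in its list (1.54%). Another near Ccr3 (16.5 points), the eotaxin receptor, was the only member among 8 in its list (12.5%). Both overlapped between the genotypes by pileup height, with gaps of -5.62 and -2.82 points.

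Other lists held 1 to 3 members, and 3.43% of all regions with a gene were members. The survival list gave 3 of 46 regions (6.52%), among them Fas (12.5 points), a death receptor, and Mcl1 (10.2 points), an anti-apoptotic factor. Histone acetyltransferases and deacetylases gave 2 of 30 (6.67%), Kat6a (13.2 points) and Hdac4 (11.7 points). The cell cycle list gave 1 of 39 (2.56%), Cdk1 (11.3 points). The inflammatory list gave 1 of 50 (2%), near Ccl5 (10.6 points). In the B cell, NK and erythroid list it was 1 of 5 (20%), near Klrb1c (13.5 points). By pileup height Fas and Cdk1 kept 10 points, with 13.5 and 11.9. Mcl1, Hdac4, Kat6a, Ccl5 and Klrb1c fell to 2.40, 1.14, 8.71, 6.44 and 4.78 points. Housekeeping genes gave none of 31 regions.

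Letters in the promoter windows were compared for 166 members, 77 regions higher in Sphk2 KO and 5246 shared regions, each counted by the window that held its summit. The ISRE letters were in 19 of the 166 member windows (11.4%), in 7.79% of the Sphk2 KO-higher windows, in 6.52% of windows of all shared regions and in 8.56% of all 32851 promoter windows. Of the 15 windows of the interferon lists 12 held them, among them all 7 of the members. Outside the interferon lists 12 of 159 member windows held the letters (7.55%). Of the 342 shared windows with the letters 19 were members (5.56%), against 3.16% of all shared windows.

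Windows of the members were less rich in CpG. Median GC content was 60.5% in the members, 62.3% in the Sphk2 KO-higher regions and 62.7% over all shared regions. The observed over expected CpG ratio had a median of 0.748 in the members, 0.825 in the Sphk2 KO-higher regions and 0.829 over all shared regions. It was under 0.4 in 12.7% of member windows (21 windows), 5.19% of Sphk2 KO-higher windows and 6.23% of all shared windows. The Trim30a window had no CpG at all, with a ratio of 0, and that of Ifit1bl2 had a ratio of 0.105. Base composition thus moved with membership, and its part in the motif shares was not tested.

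Shares of the other motifs follow. The ETS core CCGGAA was in 39.2% of member windows, 40.3% of Sphk2 KO-higher windows and 35.3% of shared windows. The SP/KLF letters GGGCGG were in 69.3% of member windows, 64.9% of Sphk2 KO-higher windows and 73.0% of shared windows. The NFY letters CCAAT were in 44.0% of member windows, 37.7% of Sphk2 KO-higher windows and 42.3% of shared windows. The letters AGGAAGT of PU.1, a factor of myeloid enhancers, were in 6.02% of member windows, 11.7% of Sphk2 KO-higher windows and 10.1% of shared windows. The remaining motifs were in 3.01% to 12.0% of member windows and in 4.25% to 12.1% of shared windows. They were the RUNX letters TGTGGT with the highest of these member shares, the C/EBP letters TTGCNNAA with 9.64%, and the AP-1 letters TGANTCA, which like the GATA letters AGATAA had the lowest member share. The CRE letters TGACGTCA were in 4.82% of member windows. The letters GCATGCGC that the factor NRF1 reads were in 7.83% of member windows. The E-box letters CACGTG were in 9.64% of member windows. Letters were read on both strands, and a window counts once however many matches it holds. A match is only a run of letters in a promoter window and shows no binding, and most of the members lay outside these windows.

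**Figure D5:**
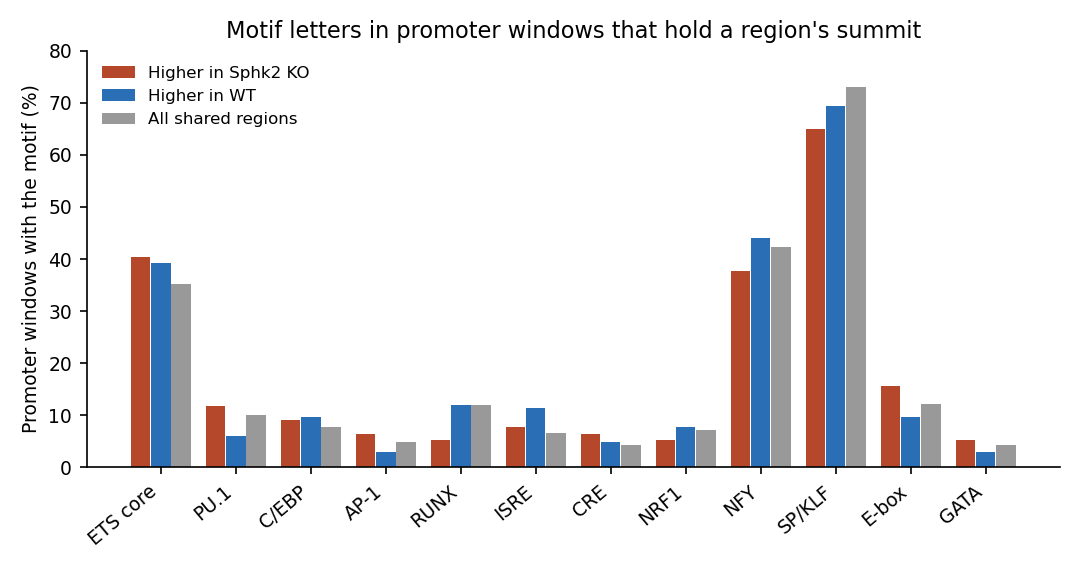
Share of promoter windows (%) that hold each motif's letters on either strand, for windows with the summit of a region that ranked higher in Sphk2 KO (77 windows, orange) or in WT (166 windows, blue) and of all shared regions (5246 windows, grey). The ISRE bar is 11.4% in WT-higher windows and 6.52% in all shared windows, and the PU.1 bar is 6.02% against 10.1%.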

How the data were processed

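Peak lists of 4 ATAC-seq libraries were used. The submitters' processing notes name cutadapt, BWA, MACS2 and build mm10. Per the file headers, the authors ran MACS 2.1.1.20160309 once per library with no control, on read pairs. They used a q-value of 0.05, an effective genome of 1.87e+09 and a 10 kb local background, and kept 1 fragment per position, per the file headers. This removed 8.24% and 8.99% of fragments in Sphk2 KO libraries and 6.42% and 8.23% in WT libraries. Mean fragment size was 179 and 193 bp in Sphk2 KO libraries and 156 and 177 bp in WT libraries. The sources used here do not mention a Tn5 shift.

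The deposited values are each peak's pileup height (a coverage signal, not scaled to depth), its p-value and q-value as −log10, and its fold enrichment (a ratio to the authors' local background). They are the authors' peak values and were ranked within a library alone. Ranks gave ties their mean. Read counts per region were not used here.

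Positions are 1-based on mm10. Genes came from a RefSeq table of GRCm38.p6 with 21896 protein-coding genes and no strand, so the distance to the nearer gene end was used, up to 100 kb. All 569 genes of the 29 lists were found in it. Sequences came from RefSeq promoter windows of the same assembly. The members and the lists were chosen with earlier results of these data known. Genes named were the 16 largest gaps with a gene end within 100 kb, up to 3 per list, up to 10 with a promoter window, the edges of the rule and those nearest to Sphk2, and further ones are said to be chosen later. Python 3.11.15, pandas 2.3.3 and numpy 2.4.6 were used, and the ranking was tested on simulated data. Some genes that the naming rule takes are named nowhere in the text.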

Additional observations from a re-analysis of the deposited data

How the results depend on the processing

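The count of 574 regions became 1268 at a gap of 5 points and 119 at 20 points. It was 1297 to 1839 when 1 library was left out, where fewer libraries have to agree: 1297 without Sphk2 KO replicate 1, 1839 without Sphk2 KO replicate 2, 1450 without WT replicate 1 and 1422 without WT replicate 2. With the same-numbered libraries compared as pairs (replicate block) it was 878. The labels do not say that the numbers pair the libraries. The other settings gave 518 to 579 regions. The gene-end share of 44.3% was 37.45% by pileup height, 38.41% by −log10 q, 52.94% at 20 points and 39.9% within 500 bp of a gene end. The 14 interferon regions became 22 by pileup height and 12 to 21 under the other settings with the gap kept at 10 points. These interferon counts were added after the data had been seen. Ranked by pileup height, 4 of 50 named gaps fell below 0, so that the genotypes overlapped: Sphk2 at -10.76, Csf2rb at -5.62, Ccr3 at -2.825 and Bcat2 at -0.2702 points. Another 14 fell under 10 points and 32 did not. By −log10 q 37 kept 10 points and none fell below 0. With only peaks of −log10 q of at least 5, 34 of the 50 kept 10 points and 16 were absent, since a library no longer had the peak. The cause of the other shifts was not tested. Few fragments per peak in Sphk2 KO replicate 1, where ties were most frequent, limit the ranks of weak regions.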

Other observations

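On the sex chromosomes 316 regions were called in all 4 libraries, 312 of them on X, and these were ranked among all chromosomes. Of these, 4 ranked at least 10 points higher in WT and 5 at least 10 points higher in Sphk2 KO. The 4 were at Amer1, a regulator of Wnt signalling, with a gap of 18.2 points, Mtm1 with 12.5 points, Prps2 with 11.8 points and Pim2, a survival kinase, with 11.1 points. At Amer1 the ranks were 5.16 and 11.2 in Sphk2 KO libraries, against 29.4 and 43.2 in WT libraries. The 4 were named after their values were seen.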
